A study of Rattus norvegicus with 8 samples.

Results

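The genes described here are 7 that carry out or restrain programmed cell death: *Casp1*, *Pycard*, *Fas*, *Aifm1*, *Cideb*, *Xiap* and *Api5*. They were chosen by name, as the probe sets annotated to these symbols on an Affymetrix array of the rat genome, and are 7 of the 14217 genes it names. All 7 were bright enough to be tested among 9258 genes. The data are 8 arrays of total RNA from the intestinal epithelium of Wistar rats aged 4 months, 2 arrays in each of 4 groups. TW rats drank tap water for 3 days, DSW1200 rats drank deep-sea water adjusted to a hardness of 1200 for 3 days, SeW rats drank selenium water for 3 days, and WR rats had water withheld for 12 h. The study's methods describe female rats, cells loosened from the proximal small intestine with chelating and reducing agents and then filtered, and selenite as the selenium of SeW. They also mention a longer WR beside array data, and the 12 h used here is that of the labels. The labels name no altered genotype and no ulcer induction for these groups. The study set out to evaluate whether drinking deep-sea water helps against acetic acid-induced duodenal ulcers, with magnesium and selenium waters for comparison. Its arrays are part of that work, beside ulcer, apoptosis and protein measurements. They allow WR, DSW1200 and SeW each to be compared with TW, and SeW with DSW1200.

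As background, cells lining the villus are shed at its tip after a short life, and a death programme runs when they are lost early. Death receptors on the surface and signals released by mitochondria are the main routes that lead to caspases, the proteases that dismantle a cell. A separate platform, the inflammasome, joins a sensor to an adaptor and to caspase-1, which matures inflammatory cytokines, and its outcome is not a quiet death. Inhibitor proteins hold these routes in check.

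*Api5* was the single gene of the 7 whose difference passed the test, in 1 of 4 comparisons: it was lower in SeW than in DSW1200 by 0.83 on the log2 scale (SE 0.16, adjusted p = 0.0338, limma with Benjamini-Hochberg adjustment, 2 arrays a group). In SeW against TW 0 of 7 passed and 2 had an unadjusted p under 0.05, as did 19.6% of all tested genes. There *Api5* lay 0.57 lower (adjusted p = 0.0976) and *Pycard* 0.59 lower (adjusted p = 0.180). In WR against TW and in DSW1200 against TW 0 of 7 passed. At an unadjusted p under 0.05 it was 0 of 7 as well, beside 9.7% and 7.92% of all tested genes. Over all tested genes the share that passed was 0.0108% in WR against TW, 0% in DSW1200 against TW, 1.91% in SeW against TW and 2.72% in SeW against DSW1200. Without TW array 1 the first of these counts went from 1 to 219 genes and the second from 0 to 131. The labels do not say whether the 2 arrays of a group came from separate animals, so these p-values measure the spread between samples, which may be technical. With 2 arrays against 2, an exact two-sided permutation test of a single gene cannot go below p = 0.3333, and the number of arrays limits the precision of all values here.

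**Figure D1:**
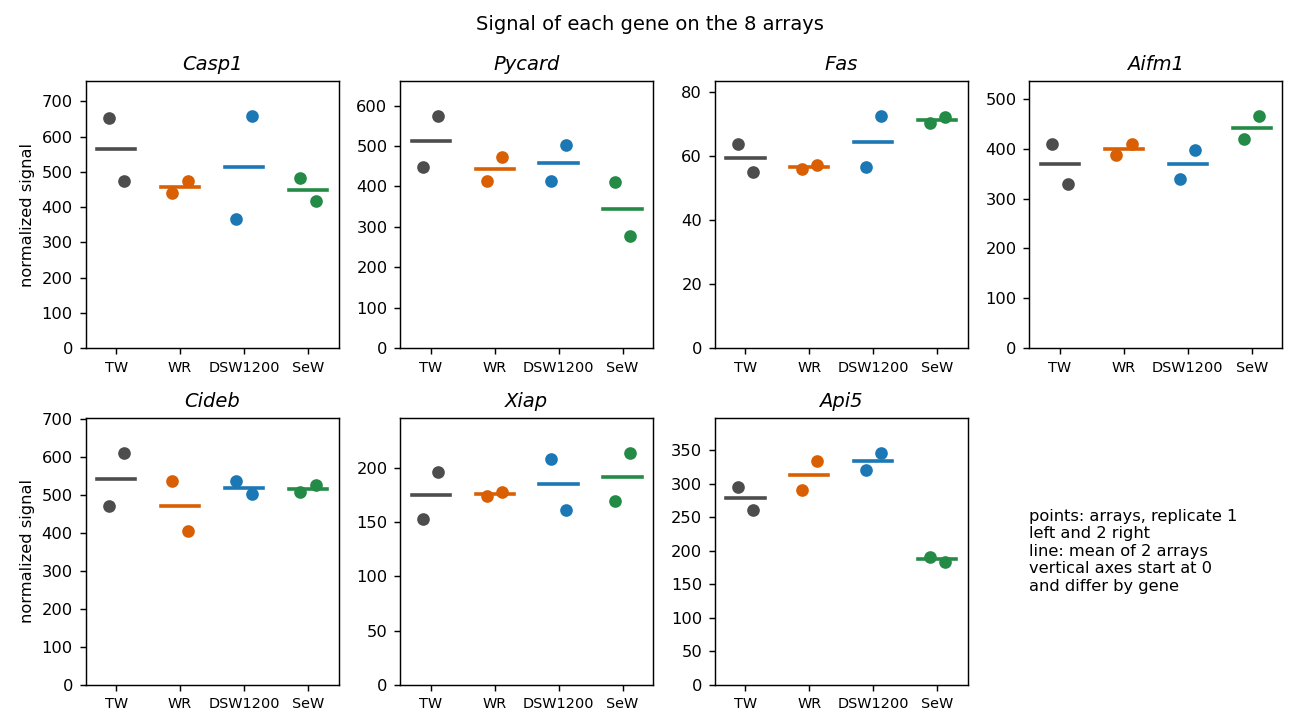
Normalized signal (vertical axis, linear, from 0, a separate scale for each gene) of the 7 genes on the 8 arrays, by group on the horizontal axis. Points are arrays and lines are means of 2. The 2 SeW arrays of *Api5*, at 191.6 and 183.5, sit under the other 6, which run from 261.5 to 346.9.

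The arrays differed in brightness and in RNA state before any gene is considered. Deposited medians ran from 4.3 to 11.1 and were highest on the SeW arrays, and the signals given here were therefore normalized to a common distribution. The ratio of the beta-actin 3' and 5' control probe sets, which rises as RNA is broken, was 13.6 and 10.9 on the SeW arrays. It was between 20.6 and 32.8 on the other 6. The 3' signal was thus many times the 5' signal on all 8 arrays, SeW included, and RNA state may limit every value here. Wherever this ratio is used as a covariate, SeW and RNA state cannot be told apart. Enterocyte markers were bright in the fraction, 12 of 14 listed having a probe set that could be tested, with a summed signal of 35010 to 38070 on the arrays of TW, WR and DSW1200 and of 41740 and 43400 on those of SeW. Transcripts of other cells were present too, and 0 of the 14 myeloid and 13 T and NK cell markers listed lay at the floor on all 8 arrays. The 13 T and NK cell markers summed to 328 and 315 in SeW against 433 to 623 on the other 6 arrays. The 14 myeloid markers summed to 2336 and 2440 in SeW against 1897 to 2927. Most of the myeloid sum was *Cd74*, at 2115 and 2206 in SeW, so it says little of the other myeloid markers. In such bulk samples, fewer cells of a type and less RNA per cell cannot be told apart.

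*Casp1* and *Pycard* belong to the inflammasome. *Casp1* encodes caspase-1, the protease that matures interleukin-1 beta and interleukin-18. TW gave 652.6 and 474.8 signal units, WR 439.0 and 474.4, DSW1200 366.6 and 658.9, and SeW 481.4 and 418.6. One TW array and one DSW1200 array stood high while the other array of each group did not, so the spread inside these groups (means 564 ± 126 and 513 ± 207, SD, n = 2) exceeded the distance between their means. The WR arrays both lay under both TW arrays (the nearest pair at 474.4 and 474.8), and the change was -0.29 (SE 0.26, adjusted p = 0.731, limma). For SeW the change was -0.31 against TW (adjusted p = 0.557) and -0.13 against DSW1200 (adjusted p = 0.828), and for DSW1200 against TW it was -0.18 (adjusted p = 0.838). The 95% interval of each of these 4 changes included 0, and reached -0.90 at its low end for SeW against TW.

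*Pycard* encodes ASC, the adaptor that joins inflammasome sensors to caspase-1. The TW arrays read 449.1 and 574.5, the WR arrays 414.0 and 472.1, the DSW1200 arrays 413.6 and 502.0, and the SeW arrays 411.0 and 276.2. Both SeW arrays were the lowest of the 8, although the higher of them lay close to the lower arrays of WR and DSW1200. TW averaged 512 ± 88.7, WR 443 ± 41.1, DSW1200 458 ± 62.5 and SeW 344 ± 95.3 (SD, n = 2). In SeW against TW the change was -0.59 (SE 0.22, 95% interval -1.08 to -0.10), with an unadjusted p of 0.0226 and an adjusted p of 0.180 in limma. It ran from -0.88 without SeW array 1 to -0.31 without SeW array 2, and was -0.36 with the beta-actin ratio as a covariate. Against DSW1200 it was -0.44 (adjusted p = 0.306), with a 95% interval from -0.93 to 0.054, -0.72 and -0.15 without SeW arrays 1 and 2, and -0.098 with the covariate. The 2 remaining changes, WR and DSW1200 against TW, were -0.20 (adjusted p = 0.776) and -0.16 (adjusted p = 0.834), with overlapping groups.

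*Pycard* is also made by myeloid cells and lymphocytes, and their markers lay lower in SeW. Of 10 myeloid markers tested, 1 was above and 9 were below TW in SeW, and the counts against DSW1200 were the same. Of 9 T and NK cell markers 0 were above and 9 below in both comparisons, and 2 of them passed the test against DSW1200. Of all tested genes 46.5% lay above TW and 46.9% above DSW1200 in SeW, and 2.72% passed against DSW1200. Enterocyte markers lay the other way from the myeloid and T and NK cell markers, with 10 above and 2 below TW among 12 tested. The myeloid and enterocyte markers that passed were 0 in both comparisons. The other lists were mixed. Of 6 goblet and Paneth markers 1 was above and 5 were below TW in SeW. Of 10 fibroblast and muscle markers 9 were above and 1 was below. Of 5 endothelial markers 1 was above and 4 were below. For B and plasma cells and for pancreatic acinar cells, each with 3 markers tested, 1 was above and 2 were below. The part of these cell types in the *Pycard* and *Casp1* values was not tested.

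*Fas* encodes the death receptor that binds Fas ligand and recruits caspase-8. By its brightest probe set, signals were 63.85 and 55.11 for TW, 55.88 and 57.34 for WR, 56.56 and 72.59 for DSW1200 and 70.22 and 72.33 for SeW. The 2 SeW arrays were close together and above both TW arrays, but one DSW1200 array was brighter than either. The change in SeW was 0.26 against TW (SE 0.20, adjusted p = 0.517) and 0.15 against DSW1200 (adjusted p = 0.734) in limma. In WR it was -0.068 (adjusted p = 0.936) and in DSW1200 0.11 (adjusted p = 0.881), both against TW. A pair of further probe sets of *Fas* stayed dim, with a signal of at most 8.8 on the 8 arrays, and lay under the mean level needed for a test, and gave no second reading of this gene.

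*Aifm1* encodes apoptosis-inducing factor, a mitochondrial flavoprotein that serves respiration and can move to the nucleus in a cell death that needs no caspase. TW gave 409.4 and 329.5 signal units, WR 387.9 and 408.8, DSW1200 338.5 and 398.2, and SeW 418.6 and 465.7. The SeW arrays were the highest of the 8, the lower of them at 418.6 where the brighter TW array stood at 409.4. The change was 0.27 against TW (SE 0.17, adjusted p = 0.422) and 0.27 against DSW1200 (adjusted p = 0.418), and neither passed the test. WR lay 0.12 above TW (adjusted p = 0.840) with overlap, and DSW1200 differed from TW by -0.00066, with a 95% interval from -0.38 to 0.38. Enterocyte markers lay higher on the SeW arrays as well, and their part in the *Aifm1* values was not tested.

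*Cideb* encodes a CIDE domain protein, first described through its likeness to a DNA fragmentation factor and known in liver and gut for work on lipid droplets and lipoprotein particles. The TW arrays read 470.8 and 610.7, the WR arrays 535.9 and 405.2, the DSW1200 arrays 535.0 and 500.7, and the SeW arrays 506.3 and 525.1. The 2 TW arrays spanned all arrays of DSW1200 and SeW, and no pair of the groups compared was separate. Averages were 541 ± 98.9 (TW), 471 ± 92.4 (WR), 518 ± 24.3 (DSW1200) and 516 ± 13.3 (SeW), each with its SD over 2 arrays. Changes were -0.20 in WR (adjusted p = 0.732), -0.051 in DSW1200 (adjusted p = 0.939) and -0.056 in SeW (adjusted p = 0.900) against TW, and -0.0055 in SeW against DSW1200 (adjusted p = 0.990). For the last of these the 95% interval was -0.42 to 0.41, so a difference of that size either way was within reach of the error.

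*Xiap* encodes an inhibitor that binds and blocks active caspases. By its bright probe set, signals were 153.1 and 196.5 for TW, 173.9 and 177.8 for WR, 208.4 and 160.9 for DSW1200 and 169.1 and 214.0 for SeW. The groups overlapped in each of the 4 comparisons. The changes were 0.020 in WR (adjusted p = 0.982), 0.078 in DSW1200 (adjusted p = 0.920) and 0.13 in SeW (adjusted p = 0.776) against TW, and 0.055 in SeW against DSW1200 (adjusted p = 0.914). The other probe set of *Xiap* was dim, with a signal of 0.41 to 8.9. Averaged with the bright one it gave a change of 0.29 in WR, 0.57 in DSW1200 and 0.87 in SeW against TW (adjusted p = 0.868, 0.751 and 0.386), and of 0.30 in SeW against DSW1200 (adjusted p = 0.804).

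*Api5* encodes apoptosis inhibitor 5, a nuclear protein known to hold back cell death when growth factors are withdrawn. By its brighter probe set, TW gave 295.4 and 261.5 signal units, WR 291.2 and 334.9, DSW1200 320.8 and 346.9, and SeW 191.6 and 183.5. The SeW arrays were close together and well under the other 6, whereas the DSW1200 arrays both lay over both TW arrays. TW averaged 279 ± 24.0, WR 313 ± 30.9, DSW1200 334 ± 18.4 and SeW 188 ± 5.78 (SD, n = 2). *Api5* fell by 0.83 on the log2 scale in SeW against DSW1200 (95% interval -1.19 to -0.47), with the 120th smallest p of the 9258 genes. In SeW against TW the change was -0.57 (SE 0.16, 95% interval -0.93 to -0.21, unadjusted p = 0.00551), and after adjustment over all genes the p was 0.0976 in limma. The change was 0.26 in DSW1200 (adjusted p = 0.658) and 0.17 in WR (adjusted p = 0.742) against TW. A test over the 3 comparisons with TW together gave an adjusted p of 0.0864 for *Api5* and of 0.371 to 0.949 for the other 6 genes, so 0 of 7 passed it, while 0.616% of all tested genes did. At an unadjusted p under 0.05 this joint test took in 1627 of all tested genes.

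**Figure D2:**
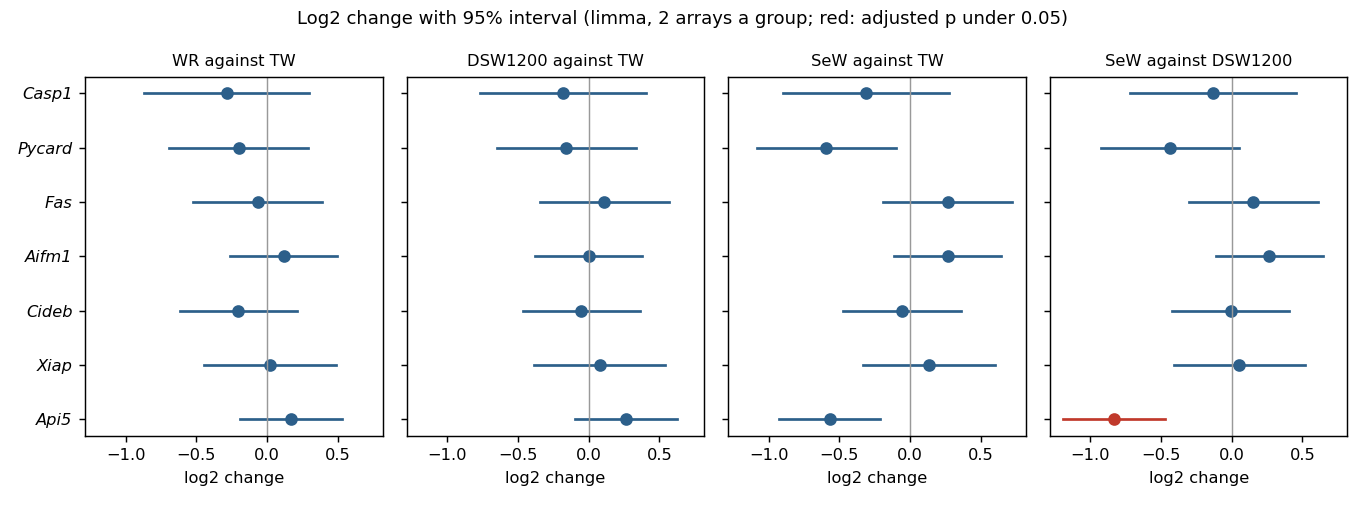
Log2 change of each of the 7 genes in the 4 comparisons (horizontal axis, log2 units), with the 95% interval from limma (2 arrays a group). The interval lies wholly under 0 for *Api5* in SeW against DSW1200 (drawn in red, -1.19 to -0.47) and in SeW against TW, and for *Pycard* in SeW against TW, and takes in 0 elsewhere.

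The second probe set of *Api5* did not show the SeW difference. It was dimmer. The TW arrays read 19.61 and 12.48, the WR arrays 17.73 and 15.43, the DSW1200 arrays 17.10 and 19.17, and the SeW arrays 16.92 and 14.42. The SeW arrays lay inside the range of the TW arrays, with a change of -0.0013 against TW, and both under the DSW1200 arrays, with a change of -0.21 (adjusted p = 0.791, limma over single probe sets). When both probe sets of *Api5* were averaged, the change in SeW against DSW1200 was -0.52 and did not pass (adjusted p = 0.241). In SeW against TW that average gave -0.28 (adjusted p = 0.524).

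**Figure D3:**
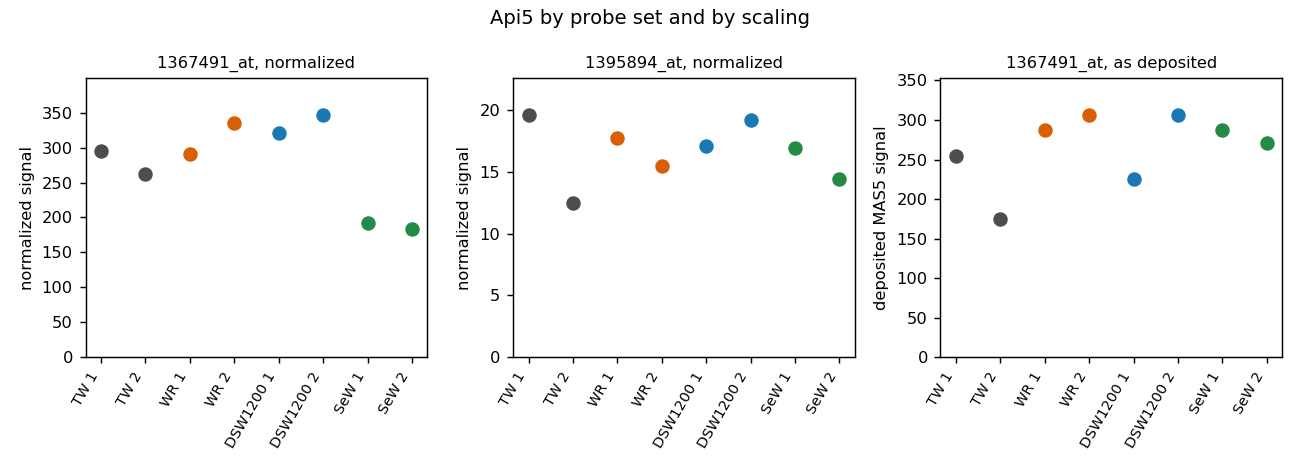
Signal of *Api5* on the 8 arrays (horizontal axis) for its brighter probe set after normalization (left, 183.5 to 346.9), for its dimmer probe set after normalization (middle, 12.48 to 19.61) and for the brighter probe set as deposited (right, 174.8 to 306.5). Vertical axes are linear signal units from 0, and each point is an array.

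The size of the *Api5* change in SeW against DSW1200 stayed between -0.89 and -0.77 with any 1 array left out, while the test's verdict moved. Without either TW array it still passed (adjusted p = 0.0259 and 0.0261), and without any 1 of the other arrays it did not: the adjusted p was 0.0651 and 0.0660 without WR arrays 1 and 2, 0.0824 and 0.112 without those of DSW1200, and 0.152 and 0.234 without those of SeW. In the deposited signals, before normalization, the brighter probe set read 254.0 and 174.8 in TW, 225.7 and 306.2 in DSW1200, and 286.9 and 271.1 in SeW. On that scale SeW lay 0.085 above DSW1200, where the median of all genes lay 0.84 above. With arrays centred on their medians the change was -0.65 (adjusted p = 0.309). Relative to the median gene, *Api5* lay at -0.79 after quantile normalization and at -0.75 on the deposited scale. Centring shifts each array by a constant, so it gives the same -0.75 by construction and is no further reading. With the beta-actin ratio as a covariate the *Api5* change was -0.49 (adjusted p = 0.976), and 0 of all 9258 genes passed. The ratio was lowest on both SeW arrays, so SeW and RNA state cannot be told apart, and this value is no correction for RNA state.

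Taking the 7 genes as a list, 3 lay above and 4 below 0 in each of the 4 comparisons, although 7, 5, 7 and 7 lay above 0 on the deposited scale and 0, 3, 4 and 5 with arrays centred on their medians (in the order WR, DSW1200 and SeW against TW, and SeW against DSW1200). The median change was -0.068 in WR, -0.00066 in DSW1200 and -0.056 in SeW against TW, and -0.0055 in SeW against DSW1200, beside -0.011, -0.021, -0.042 and -0.039 for all tested genes. Arrays of the groups compared did not overlap for 1 gene in WR against TW (*Casp1*, lower) and for 1 in DSW1200 against TW (*Api5*, higher), against 39.7% and 35.9% of all tested genes. They did not overlap for 4 genes in SeW against TW (*Aifm1* and *Fas* higher, *Pycard* and *Api5* lower) and for 3 in SeW against DSW1200 (*Aifm1* higher, *Pycard* and *Api5* lower), against 51.2% and 53.9%. Read against those shares, the counts did not set the 7 genes apart. The comparisons with TW share its 2 arrays, and those with SeW share the SeW arrays.

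Both arrays of SeW lay outside the range of the other 6 for 3 of the 7 genes, *Aifm1* above and *Pycard* and *Api5* below. Of all tested genes 23.6% did so, 979 above and 1207 below. For TW, WR and DSW1200 the count was 0 of 7, beside 10.1%, 7.32% and 8.79% of all tested genes. The 250 bases before the annotated start of these 3 genes are shown, because these are the members for which the SeW arrays stood outside the rest. The sequences are those of RefSeq on the build GRCr8, 5′ to 3′ on the strand of the gene, which is the minus strand for all 3: *Api5* at chr3:100858581-100858830, *Pycard* at chr1:192033420-192033669 and *Aifm1* at chrX:132567238-132567487. Capitals mark a GC box (GGGCGG) or a CCAAT box (CCAAT), read on both strands.
*Api5*: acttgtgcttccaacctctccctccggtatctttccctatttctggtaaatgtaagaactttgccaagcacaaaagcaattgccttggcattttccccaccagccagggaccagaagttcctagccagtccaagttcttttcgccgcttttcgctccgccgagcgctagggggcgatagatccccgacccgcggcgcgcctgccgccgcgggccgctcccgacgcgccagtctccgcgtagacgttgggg
*Pycard*: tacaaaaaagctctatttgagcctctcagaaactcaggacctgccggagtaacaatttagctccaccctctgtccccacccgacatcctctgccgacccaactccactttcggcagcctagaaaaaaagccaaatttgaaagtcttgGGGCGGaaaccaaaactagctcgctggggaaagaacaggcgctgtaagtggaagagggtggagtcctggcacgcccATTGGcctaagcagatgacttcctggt
*Aifm1*: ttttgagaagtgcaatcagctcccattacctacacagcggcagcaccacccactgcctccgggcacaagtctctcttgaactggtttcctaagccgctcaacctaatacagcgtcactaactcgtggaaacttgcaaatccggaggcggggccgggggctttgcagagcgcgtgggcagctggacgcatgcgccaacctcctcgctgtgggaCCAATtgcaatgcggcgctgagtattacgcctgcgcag

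Upstream of *Pycard* a GC box begins 103 bases before the start and a CCAAT box on the other strand 27 bases before it. Upstream of *Aifm1* the one match is a CCAAT box 38 bases before the start, and these letters are not in the window of *Api5*. Of 33469 rat promoter windows of the same length, 30.5% hold a GC box, 34.0% a CCAAT box and 12.9% a TATA box (TATAAA), and the last was in none of the 6 windows matched (*Xiap* was not matched). The window of *Api5* held 23 CpG pairs, as many as or more than 89.1% of all windows, that of *Aifm1* 17 and that of *Pycard* 8, where the median window held 5. The windows of *Fas*, *Casp1* and *Cideb* held 6, 2 and 2. These counts describe the sequence and were set against no array value.

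Around the 7 genes, 87 others of the same pathways were listed in 6 groups. Of these 69 had a probe set of their own here and 57 were bright enough to test. In limma 0 of 57 passed in any of the 4 comparisons. The share of all tested genes that passed was at most 2.72% in any of them, so this count does not set the pathway genes apart. At an unadjusted p under 0.05 there were 1 in WR against TW, 2 in DSW1200 against TW, 5 in SeW against TW and 11 in SeW against DSW1200, where the counts over all tested genes were 898, 733, 1810 and 1848. Their median change was 0.092, 0.051, 0.065 and 0.021 in that order, beside -0.011, -0.021, -0.042 and -0.039 for all tested genes. Groups did not overlap for 21, 19, 29 and 28 of the 57, where 39.7%, 35.9%, 51.2% and 53.9% of all tested genes did not.

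**Figure D4:**
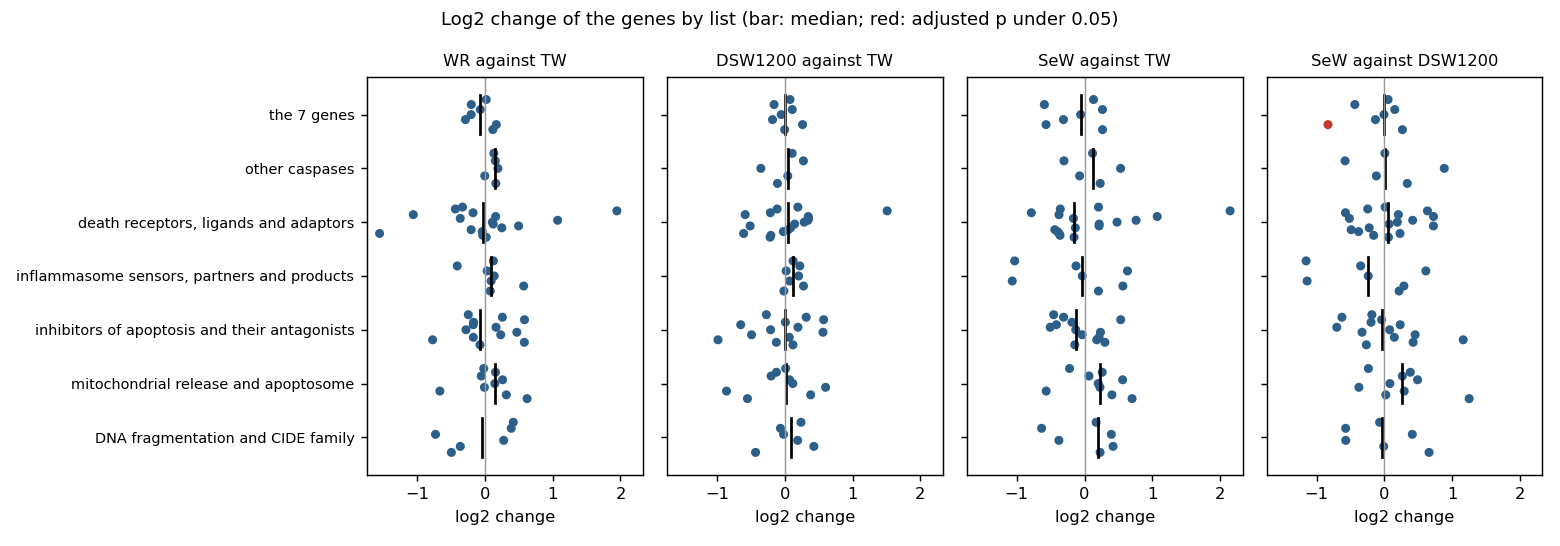
Log2 change (horizontal axis) of the 7 genes and of the 57 tested genes of the 6 pathway lists, a panel for each comparison. Points are genes, bars are list medians, and the red point, *Api5* in SeW against DSW1200 at -0.83, is the one with an adjusted p under 0.05.

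Among partners and products of the inflammasome, 7 were tested and 0 passed, with 3 at an unadjusted p under 0.05 in each SeW comparison, against 19.6% and 20.0% of all tested genes. *Il1b* encodes the cytokine that caspase-1 matures. Signals were 48.52 and 28.28 for TW, 40.62 and 38.38 for WR, 33.40 and 45.41 for DSW1200 and 15.28 and 20.49 for SeW. Both SeW arrays were the lowest of the 8, with a change of -1.07 against TW (adjusted p = 0.112) and of -1.14 against DSW1200 (adjusted p = 0.0897). The sensor *Nlrp6*, which is rich in gut epithelium, lay the other way, at 327.2 and 441.4 in SeW against 222.6 to 270.6 on the other 6 arrays. Its change was 0.63 against TW (adjusted p = 0.121) and 0.61 against DSW1200 (adjusted p = 0.126). *Pstpip1*, an adaptor of leukocytes that binds pyrin, was at 12.36 and 6.35 in SeW against 16.25 to 23.76 elsewhere. Its change was -1.03 against TW (adjusted p = 0.204). This signal was low, and across the other processing settings the change ran from -1.03 to 0.32, the last with the beta-actin covariate. The T and NK cell markers were lower on the same SeW arrays, and their part in these values was not tested.

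Of 17 tested death receptors, ligands and adaptors, 0 passed, where at most 2.72% of all tested genes did in any comparison. *Daxx*, a nuclear protein first found as a partner of Fas, had the smallest p in WR against TW. It was at 22.91 and 34.52 in TW and 11.97 and 7.68 in WR, with a change of -1.55 (adjusted p = 0.373). These signals were low, and the change came down to -0.53 under another of the processing settings. *Tnfrsf1a*, the receptor of tumour necrosis factor, was at 197.4 and 219.3 in TW, 169.3 and 154.4 in WR, and 293.0 and 240.5 in DSW1200. It lay under TW in WR and over TW in DSW1200 without overlap, and neither passed the test (changes of -0.36 and 0.35).

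Of 13 tested inhibitors and their antagonists 0 passed, beside at most 2.72% of all tested genes in any comparison. *Bfar*, an apoptosis regulator of the endoplasmic reticulum, was between 9.39 and 13.56 on the 4 arrays of WR and DSW1200, at 17.90 and 22.08 in TW and at 22.21 and 22.81 in SeW. The arrays of WR and DSW1200 were all lower than those of TW and SeW, with a change of -0.98 in DSW1200 against TW (adjusted p = 0.617) and of 1.16 in SeW against DSW1200 (adjusted p = 0.106). These were -0.30 and 0.37 with an offset of 32 added to this low signal before log2, and -0.64 and 0.095 with the beta-actin covariate. *Tmbim6*, or Bax inhibitor 1, was at 2888 and 3186 in TW and 2293 and 2136 in SeW, a change of -0.45 (adjusted p = 0.121).

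Of 5 other caspases, 9 genes of mitochondrial release and the apoptosome and 6 of DNA fragmentation and the CIDE family, 0 passed. At most 2.72% of all tested genes did in any comparison. *Casp6*, an executioner caspase, was at 275.6 and 347.6 in SeW and at 212.0 and 132.7 in DSW1200, with a change of 0.88 (adjusted p = 0.0974). The SeW arrays were above both DSW1200 arrays, although one WR array, at 276.7, lay between them. *Opa1*, which shapes the inner mitochondrial membrane and holds cytochrome c in its folds, was at 87.51 and 77.11 in TW and at 111.7 and 139.4 in DSW1200, with a change of 0.60 (adjusted p = 0.617). *Acin1*, a chromatin condensation factor cut by caspases, was at 54.39 and 71.58 in TW and 48.43 and 40.50 in WR, with a change of -0.49.

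The genes whose array pattern was most like that of each of the 7 were found by the root mean square distance between log2 values centred on their mean, over the 8 arrays and 9257 genes. *Api5* was nearest to *Mettl6* (distance 0.054 log2 units, where *Api5* itself varied by 0.33 around its mean) and *Usp39* (0.073). *Pycard* was nearest to *Rfc4* (0.090) and *Ubap2* (0.098), and *Casp1* to *Lpcat1* (0.091) and *Nudt13* (0.10). *Cideb* was nearest to *Rbck1* (0.034), *Aifm1* to *Man2a1* (0.053), *Fas* to *Akap7* (0.057) and *Xiap* to *Cdk11b* (0.081). Genes that vary little lie near many others on this measure. Within the 7, *Aifm1* and *Fas* were the closest pair (0.12), and *Pycard* and *Api5* lay 0.27 apart.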

How the data were processed

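Total RNA of rat intestinal epithelium was hybridised to 8 Affymetrix arrays, 2 for each of TW, WR, DSW1200 and SeW, grouped by the submitters' labels. The authors deposited a linear MAS5 signal intensity for each probe set. The MAS5 version and scaling target are not given in the sources used here. The study's methods state quantile normalization, yet the deposited medians differ (4.3 to 11.1), so quantile normalization was applied here, with a floor of 1 before log2. Of 31099 probe sets, 20826 have 1 gene symbol; those with several (436) or none, controls included, were left out. Each gene was taken as its brightest probe set by mean log2 signal. The test covered the 9258 genes over 6.69 signal units, which is the median probe set.

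One limma model (limma 3.58.1, R 4.3.3) was fitted to the 8 arrays, with no term but group, 4 residual degrees of freedom and an intensity trend, with Benjamini-Hochberg adjustment over the 9258 genes and a threshold of 0.05. Intervals are 95% and cover the spread between arrays alone. The methods' own criterion of a 2-fold change was tried as an alternative, with the added demand that the groups compared do not overlap. Other scalings, filters, probe set rules, a replicate block, a beta-actin 3'/5' covariate and leaving out each array were tried as well. The model was tested on simulated data. The 7 genes and the lists were chosen with earlier results of these data known. Genes named are the 7 in all comparisons, the 4 pathway genes with the smallest p in each comparison, and the nearest patterns; not all of these are named. Promoter windows are the 250 bases before the start in RefSeq (GRCr8).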

Additional observations from a re-analysis of the deposited data

How the results depend on the processing

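With 2 arrays a group, and brightness that differed before normalization, small differences were out of reach. On values as deposited the median of all genes lay 0.38 higher in WR, 0.054 in DSW1200 and 0.92 in SeW than in TW. It lay 0.84 higher in SeW than in DSW1200. On that scale 4 of the 7 genes (*Aifm1*, *Fas*, *Cideb* and *Xiap*, higher) passed in each SeW comparison, with 30 pathway genes in SeW against TW and 20 in SeW against DSW1200. Of all 9258 tested genes 4380 and 3738 passed there, in the same order, so these counts cannot be read as particular to the lists. The joint test on that scale took in 4 of the 7, and no share of all genes is given here for it. Read against the median gene, 2, 3, 3 and 4 of the 7 lay above it on that scale and 3, 4, 3 and 4 after normalization, in the order WR, DSW1200 and SeW against TW and SeW against DSW1200. Over all tested genes 177 passed in SeW against TW and 252 in SeW against DSW1200; across the alternatives these counts ran from 0 in both with the beta-actin covariate to 4380 and 3738 on values as deposited, with 64 and 77 under median centring, 12 and 19 without a filter, and 2 to 521 and 3 to 436 with arrays left out. Without TW array 1 the counts in WR and DSW1200 against TW, 1 and 0, were 219 and 131.

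In SeW against DSW1200 the count was 0 of 7 under median centring, no filter, the mean of probe sets, no intensity trend, the beta-actin covariate and the 2-fold criterion, and 0 to 1 when arrays were left out in turn. The *Api5* change itself was -0.83 with no filter, no intensity trend or the block (adjusted p = 0.0713, 0.121 and 0.0566), -0.65 under median centring, -0.52 as the mean of probe sets and -0.49 with the covariate. It passed under the stricter filter, the offset of 32, the 4 arrays alone and single probe sets. With the replicate number as a block the count was 0; the numbers showed no pairing (correlations of deviations between -0.065 and 0.040), so the block is given here alone. The joint test counted 0 to 1 of the 7 with arrays left out. With arrays left out, 0 to 1 pathway genes passed in WR against TW, in SeW against TW and in SeW against DSW1200. By single probe sets 1 passed (*Vdac1*) in each SeW comparison. The 2-fold criterion, applied only where the groups did not overlap, took in 1 (*Daxx*) in WR against TW. In SeW it took in 3 (*Il1b*, *Pstpip1*, *Tnfrsf21*) against TW and 3 (*Bfar*, *Il1b*, *Pstpip1*) against DSW1200. Changes past 2-fold with overlapping groups, such as 2.15 for *Tnfsf12* in SeW against TW, are not in these counts. No share of all genes is given here for single probe sets or the 2-fold criterion, so these counts cannot be read as particular to the lists.

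Signs turned as follows, on the log2 scale. As deposited, the WR change against TW was 0.035 for *Casp1*, 0.10 for *Cideb*, 0.35 for *Fas* and 0.088 for *Pycard*. That of DSW1200 was 0.045 for *Aifm1* and 0.0066 for *Cideb*. That of SeW was 0.40 for *Api5*, 0.66 for *Casp1*, 0.90 for *Cideb*, 0.35 for *Pycard* and 0.22 for *Tmbim6*. In SeW against DSW1200 it was 0.085 for *Api5*, 0.77 for *Casp1*, 0.90 for *Cideb* and 0.45 for *Pycard*. With median centring it was -0.071 for *Aifm1*, -0.0052 for *Api5* and -0.13 for *Xiap* in WR, 0.051 for *Cideb* in SeW against TW, and 0.036 for *Casp1* and 0.17 for *Cideb* in SeW against DSW1200. With the mean of probe sets *Fas* was at 0.12 in WR and -0.0058 in SeW against DSW1200. With the beta-actin covariate it was 0.038 for *Aifm1* and 0.20 for *Cideb* in DSW1200, 0.32 for *Pstpip1* and -0.12 for *Xiap* in SeW against TW, and -0.10 for *Fas* and -0.32 for *Xiap* in SeW against DSW1200.

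Leaving out arrays turned signs of small changes. Against TW the ranges were -0.04 to 0.27 for *Aifm1*, -0.17 to 0.039 for *Fas* and -0.16 to 0.20 for *Xiap* in WR. In DSW1200 they were -0.60 to 0.24 for *Casp1*, -0.16 to 0.16 for *Aifm1*, -0.069 to 0.29 for *Fas*, -0.24 to 0.14 for *Cideb*, -0.33 to 0.021 for *Pycard* and -0.11 to 0.26 for *Xiap*. In SeW they were -0.24 to 0.13 for *Cideb* and -0.047 to 0.31 for *Xiap*. Against DSW1200 those of SeW were -0.55 to 0.29 for *Casp1*, -0.026 to 0.33 for *Fas*, -0.053 to 0.042 for *Cideb* and -0.13 to 0.24 for *Xiap*. *Api5* kept its sign with any 1 array left out. The causes were not tested.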
